A study of Mus musculus with 249 samples.

Results

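The enzyme families that handle drugs, steroids, fatty acids and aldehydes were followed in the brains of F2 mice through 114 genes, out of 11633 named singly on the array, and 136 microarray probes, out of 23388. The members were the probes whose only gene symbol begins with Cyp and a digit, with Gst and one of the letters a, k, m, o, p, t or z, or with Sult, Ugt1, Ugt2, Ces or Aldh. Cyp51, Cyp2f2 and Sult1a1 were not counted among them. They comprised 78 Cyp probes, 16 Gst probes, 13 Sult probes, 8 Ugt probes, 8 Ces probes and 13 Aldh probes. One Gst probe was measured in too few animals to use, which left 135 probes for 113 genes, and 17 of the genes had more than 1 probe. The rule selects by name, but it was set with earlier results of these data known.

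Each of 249 two-colour arrays compared the brain RNA of 1 F2 mouse, labelled with Cy3, with a common pool labelled with Cy5 and made of equal parts of the samples' RNA. The mice, 330 in the cross as the labels describe it, descended from C57BL/J6 and C3H/HeJ, both lacking ApoE, and were kept on Western diet between weeks 8 and 24 of age. Both sexes were included. Every animal was therefore ApoE null and fat-fed, and no animal of another genotype or diet was measured. The labels give no sex, marker genotype, batch or replicate array for any animal, so the spread over animals holds biological and technical variation together. Every value below is the log10 of the animal's signal over that of the pool, where 0.301 is a factor of 2. In whole-brain RNA, fewer cells of a type and less RNA per cell cannot be told apart.

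Cytochrome P450 enzymes (Cyp) add oxygen to their substrates, and carboxylesterases (Ces) and aldehyde dehydrogenases (Aldh) hydrolyse esters and oxidise aldehydes. Glutathione transferases (Gst), sulfotransferases (Sult) and glucuronosyltransferases (Ugt) then attach a water-soluble group that helps the product leave the cell. These enzymes are best known from liver, lung and nasal lining. In brain, individual members make neurosteroids, retinoic acid and oxysterols, and several are concentrated at the blood vessels and meninges.

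Array 144 was left out of all values here unless it is named. Its spread over all probes was 0.392, against a median of 0.0764 over the other arrays and 0.258 for the next widest. Its lung marker list stood at 0.792, above a range of -1.15 to -0.798 in the other 248 animals, and its neuronal list stood at -1.34, below their range of -0.271 to 0.0849, so that this array went against its label of brain. Ratios to a pool of the same tissue do not show absolute levels, so the tissue of the other arrays could not be checked by the presence of brain markers. The spread was unevenly shared among arrays. Animal 213 gave the highest or lowest value of 54 of the 135 member probes and animal 178 that of 29. The SDs of these arrays over all probes were 0.244 and 0.258. How often they were extreme over all probes was not counted, so these counts do not single out the enzymes. Pairs of arrays correlated over all probes at a median of 0.314, the lowest at -0.344, and 6 of 30628 pairs lay under -0.3.

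Promoter stretches of 6 genes that the results turn on are shown first, each the 150 bases before the annotated start. They were chosen after the values were seen: the Cyp4f pair and Gstm1 because they stood in the leading correlated pairs, Gsta2 and Gsta3 for their large spread or low level, and Aldh1a2 for its link to meningeal genes. Sequences are from RefSeq on GRCm38.p6, read 5′ to 3′ on the gene's strand. Capitals mark TGACNNNGC, the core of the antioxidant response element, in Cyp4f14, Gsta3 and Aldh1a2. In Gsta2 they mark TNGCGTG, the xenobiotic response element bound by the aryl hydrocarbon receptor. In Gstm1 they mark TATAAA, the core promoter element that positions the start of transcription. The Cyp4f15 stretch held no match and is shown for comparison with Cyp4f14.
Cyp4f14, chr17:32917088-32917237, minus strand: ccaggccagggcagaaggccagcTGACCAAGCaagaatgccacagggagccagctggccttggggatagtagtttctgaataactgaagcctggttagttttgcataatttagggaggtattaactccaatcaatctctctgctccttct
Cyp4f15, chr17:32685509-32685658, plus strand: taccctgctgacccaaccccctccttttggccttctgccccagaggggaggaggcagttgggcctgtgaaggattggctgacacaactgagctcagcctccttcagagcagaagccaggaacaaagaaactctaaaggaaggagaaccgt
Gsta2, chr9:78347146-78347295, minus strand: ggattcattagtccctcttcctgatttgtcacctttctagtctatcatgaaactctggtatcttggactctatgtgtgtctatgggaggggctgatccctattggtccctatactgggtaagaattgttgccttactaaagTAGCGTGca
Gsta3, chr1:21240435-21240584, plus strand: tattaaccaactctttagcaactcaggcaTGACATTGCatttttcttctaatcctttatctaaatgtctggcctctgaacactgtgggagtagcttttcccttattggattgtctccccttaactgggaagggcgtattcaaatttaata
Aldh1a2, chr9:71215639-71215788, plus strand: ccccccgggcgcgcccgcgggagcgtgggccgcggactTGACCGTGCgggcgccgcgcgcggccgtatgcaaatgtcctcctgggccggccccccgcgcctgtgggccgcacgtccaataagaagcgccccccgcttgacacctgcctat
Gstm1, chr3:108017819-108017968, minus strand: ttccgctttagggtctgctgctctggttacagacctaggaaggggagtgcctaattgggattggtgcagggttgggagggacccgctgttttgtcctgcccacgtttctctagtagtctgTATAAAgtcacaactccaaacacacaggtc
The match began 127 bases before the start in Cyp4f14, 121 in Gsta3, 112 in Aldh1a2, 30 in Gstm1 and 9 in Gsta2.

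These 3 motifs, picked after the values were seen, were searched on both strands from 250 bases before to 50 bases after the start of the 87 member genes that had a promoter in the table. TATAAA stood in 30 of the 87, or 34.5%, and in 15.7% of all 27025 genes. In Cyp1a1, Cyp8b1, Cyp2e1 and Gstm1 it began 30 or 31 bases before the start. TGACNNNGC stood in 8 member genes, or 9.20%, and in 14.0% of all genes. TNGCGTG stood in 5, or 5.75%, and in 5.84% of all genes. A match describes letters and is not a measured binding site.

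Most enzyme probes stayed close to the pool and varied little. The median SD over 248 animals was 0.0568 for the 135 member probes and 0.0560 for all 23053 probes used. The mean lay within 0.05 of the pool for 124 member probes, or 91.9%, against 97.3% of all probes. An SD of at least 0.1 was reached by 13 member probes, or 9.63%, against 9.26% of all probes, so large spread was about as frequent as elsewhere. By the SD scaled from the median absolute deviation, which a single array moves less, 8 members reached 0.1. How many of all probes did so was not counted, so this drop does not single out the enzymes. The 13 were 9 Cyp, 2 Ces, 1 Gst and 1 Aldh probe, while no Sult or Ugt probe reached it. Just inside the threshold were Cyp2c55 at 0.101 and Aldh2 at 0.102, and just outside were Cyp1a1 at 0.0973 and Ces4a at 0.0952.

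**Figure D1:**
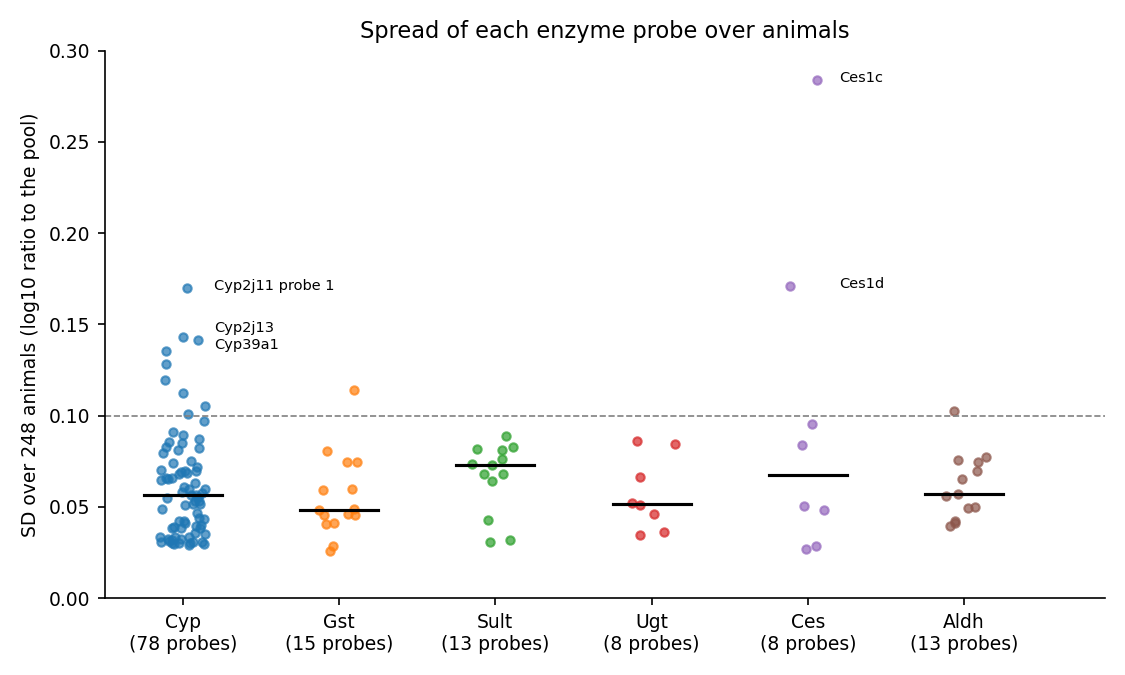
SD over 248 animals of the log10 ratio to the pool (vertical axis) for each of 135 member probes, grouped by family, with the family's median as a bar and the threshold of 0.1 as a dashed line. Ces1c, at 0.284, stands highest, and the medians of the families lie between 0.0481 (Gst) and 0.0730 (Sult).

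The 2 largest SDs were those of the carboxylesterases Ces1c and Ces1d. The family as a whole was not the widest: the median SD of its 8 probes was 0.0672, against 0.0730 for Sult. Ces1c encodes the esterase that rodents secrete into plasma. Its values ran from -2 through a median of -0.0126 to 1.45, with an SD of 0.284 (n = 248). Most animals lay much closer together than that SD: the SD scaled from the median absolute deviation was 0.127, 16 animals lay above 0.3 and 10 below -0.3. Its lowest value, in animal 322, is also the lower limit of the deposited values.

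In several P450 probes a single array lay far from the rest. Cyp2j11 probe 1, for a P450 of the Cyp2j family, whose members oxidise arachidonic acid, ran from -0.409 through 0.0369 to 1.79, the last in animal 22, and the next animal stood at 0.392. Cyp2c40 probe 4 reached 1.32 in animal 47, with the next at 0.402. Cyp2r1, a vitamin D 25-hydroxylase, fell to -1.09 in animal 213, with the next lowest at -0.260. Without their highest and lowest animals the SDs were 0.125, 0.0860 and 0.106. In Cyp1a1, a classic target of the aryl hydrocarbon receptor, 6 animals stood above 0.3, up to 0.706 in animal 289, around a median of 0.000736.

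Cyp39a1, an oxysterol 7-alpha-hydroxylase, ran from -0.532 through 0.0163 to 0.282 with an SD of 0.141. Cyp2b13 probe 1 ran from -0.620 through -0.130 to 0.795, the last in animal 213, with the next at 0.261. Cyp2j5 ran from -0.477 through 0.0235 to 0.676, also highest in animal 213, and its SD of 0.113 stood beside 0.0691 when scaled from the median absolute deviation. Aldh2, the mitochondrial enzyme that clears acetaldehyde, ran from -0.284 through -0.0745 to 0.555. Its middle 90% of animals spanned a 2.02-fold range, close to that of Cyp2c55 at 2.09-fold.

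Gstt1, a theta-class transferase, had the smallest SD of all members, 0.0259, with values from -0.232 through -0.000115 to 0.0747. The smallest SDs in the other families were 0.0267 for Ces3b, 0.0294 for Cyp2e1 (the ethanol-inducible P450), 0.0308 for Sult2a1 probe 1, 0.0348 for Ugt2b5 probe 2 and 0.0395 for Aldh1l1, a folate enzyme of astrocytes. The probes of largest SD in the Sult and Ugt families were Sult2a1 probe 2 at 0.0888 and Ugt1a6a at 0.0864.

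Values of 3 Cyp genes were better described by a low, a middle and a high group than by 1 normal distribution. The fit imposed weights of 25, 50 and 25%, the proportions in which a single two-allele locus segregates in an F2 cross, so the proportions are not a finding. The mixture of 3 normal components was called when it beat a single normal by a BIC gain over 10, with outer means at least 2 within-group SDs apart and tails no heavier than normal. This held for 3 of 135 member probes, against 1.27% of all probes. No marker genotype was measured, so these are shapes of distributions. Cyp2j13, a P450 of the Cyp2j cluster on chromosome 4, ran from -0.393 through 0.0274 to 0.487, with group means of -0.196, 0.0316 and 0.180, a 2.37-fold step from low to high. Cyp4f14, a leukotriene B4 omega-hydroxylase gene on chromosome 17, ran from -0.317 through 0.0202 to 0.228, with means of -0.139, 0.0211 and 0.132, a 1.86-fold step. Cyp11a1, the side-chain cleavage enzyme that begins steroid synthesis, on chromosome 9, ran from -0.172 through 0.0223 to 0.254, with means of -0.109, 0.0263 and 0.136, a 1.76-fold step. By their most probable group, 56, 138 and 54 animals were assigned for Cyp2j13, 64, 136 and 48 for Cyp4f14 and 56, 140 and 52 for Cyp11a1. Within-group SDs were 0.0630, 0.0453 and 0.0352, and neighbouring groups overlapped. With a BIC gain over 20 required, only Cyp11a1 of the 3 was called, and with array 144 included Cyp4f14 was not. Without the rule on tails, Cyp2c54, Sult5a1, Cyp2a5 and Ugt2a1 probe 1 were called as well. The shares of all probes called under these alternatives were not counted.

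**Figure D2:**
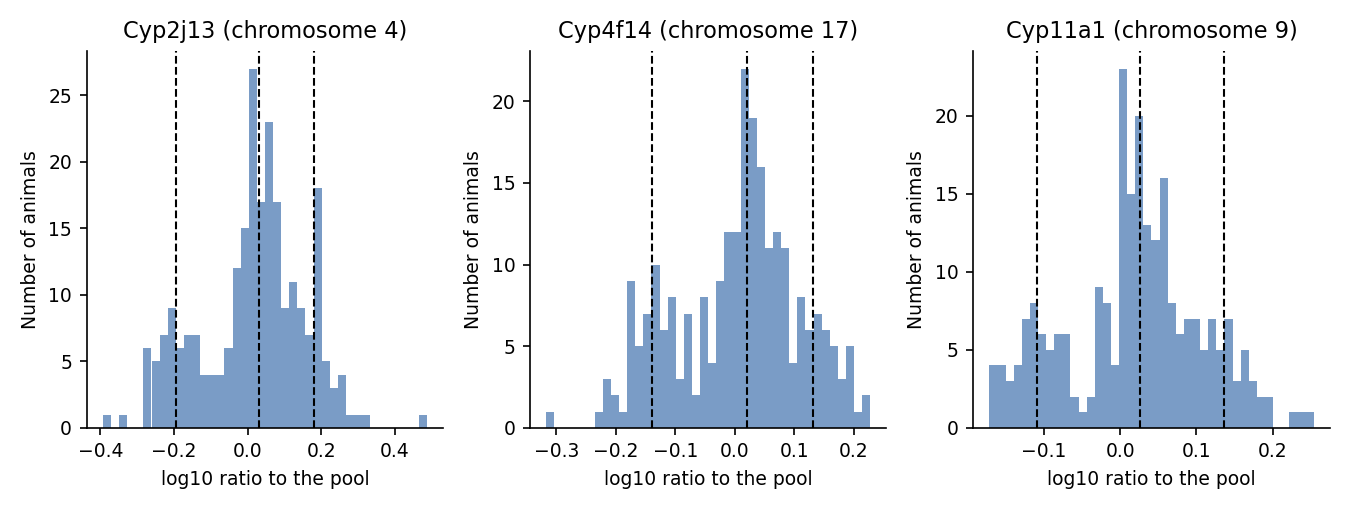
Number of animals (vertical axis) by log10 ratio to the pool (horizontal axis) for Cyp2j13, Cyp4f14 and Cyp11a1 in 248 animals, with the 3 fitted group means as dashed lines. The middle group is the largest in each, and the low group of Cyp11a1 is the most clearly set apart.

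The genes most like these 3 lay mostly on the same chromosome, a feature that the call did not use. Of the 50 genes with the largest absolute r over 248 animals, 41 for Cyp2j13, 44 for Cyp4f14 and 35 for Cyp11a1 were on the member's own chromosome. The median for the other 131 placed members was 2 of 50, with the next highest counts at 38 for Cyp4f15, 22 for Cyp2r1 and 11 for Sult2b1. Cyp2j13 was most like Prkaa2 (r = -0.72), Alad (0.70) and Bat2 (0.69), Cyp4f14 most like Decr2 (0.79), H2-T9 (0.78) and Gfer (0.78), and Cyp11a1 most like Bco2 (0.77), Rplp1 (-0.70) and C11orf1 (0.66). These r are measures of likeness for ranking and carry no test.

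The means of 3 member probes lay below -0.3, against 0.295% of all probes, and no probe, member or not, had a mean above 0.3. Ces1d, a lipid-droplet-associated esterase abundant in lung, liver and fat, ran from -1.49 through -1.19 to 0.0891, with a mean of -1.17 ± 0.171 (SD, n = 248), a pool level 14.6-fold above the average animal. Cyp2b9 probe 1, for a P450 known from female liver, ran from -0.860 through -0.604 to -0.316, and its pool level was 4.02-fold above the mean animal. Cyp4b1 probe 1, for a lung P450, ran from -0.721 through -0.559 to -0.233, with a pool level 3.58-fold above. All 248 animals lay below -0.3 for Cyp2b9 probe 1, and 247 for each of the other 2 probes. Just outside the threshold were Gsta3 at -0.288, Cyp4b1-ps2 at -0.261 and Sult1d1 at -0.216.

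The second probes of these genes did not show it. Cyp2b9 probe 2 had a mean of -0.0159 and Cyp4b1 probe 2 one of -0.0178, and their levels over animals correlated with those of the first probes at r of -0.143 and 0.0929. The 2 low P450 probes were most like Cxcl15 and Cldn7, epithelial genes, and like each other (r = 0.63). Ces1d was most like Cyp2f2 (r = 0.72), Pitx1 (0.71) and Epcam (0.67). Without animal 26 it was most like Pitx1, Epcam and the pituitary hormone genes Cga (r = 0.68) and Tshb (0.68). On the lung marker list, 8 of 9 measured genes also had means below -0.3, with Sftpc, surfactant protein C, lowest at -1.45. In array 144, Ces1d stood at 1.05, Cyp2b9 probe 1 at 1.26, Cyp4b1 probe 1 at 1.26 and Gsta3 at 1.43, each above all other animals. The part of lung RNA in the pool in these low values was not tested.

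**Figure D3:**
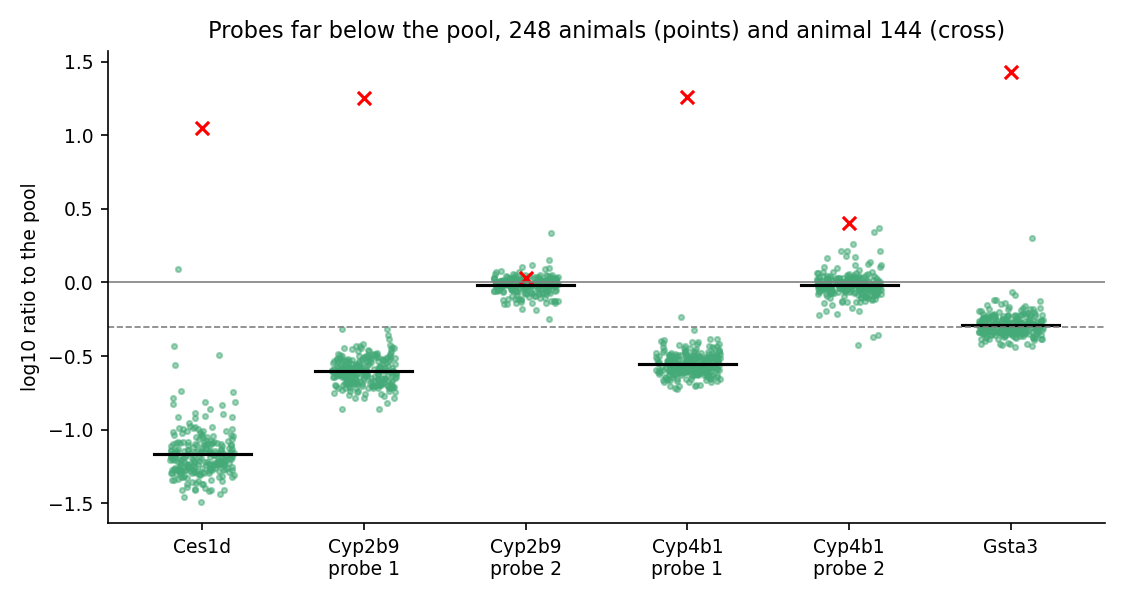
Log10 ratio to the pool (vertical axis) in 248 animals (points, bar at the mean) and in animal 144 (cross) for Ces1d, both probes of Cyp2b9 and of Cyp4b1, and Gsta3, with -0.3 as a dashed line. The first probes of Cyp2b9 and Cyp4b1 lie far below 0 and their second probes around it.

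One brain, animal 26, was highest for 9 members. Its values were chosen for description after they were seen, and how often it was highest over all probes was not counted. Cyp2g1, a P450 of the olfactory mucosa, stood at 1.08 in animal 26, against a median of 0.00543 and a next highest of 0.339. Sult1e1, the estrogen sulfotransferase, stood at 0.841 (next 0.308) and Ugt2a1 probe 1, the olfactory glucuronosyltransferase, at 0.715 (next 0.388). Cyp1a2, Ces1e and Sult1d1 followed at 0.374, 0.318 and 0.283. Sult1e1, Sult1d1 and Ugt2a1 are all on chromosome 5, and Cyp2g1 is on chromosome 7.

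Genes of nasal glands were high in the same animal. Those named here ranked among the genes most like Cyp2g1 over all animals, animal 26 included. Their height there is therefore no separate support. A Cbr2 probe, also from that ranking, stood at 0.0708 (median -0.830), but another Cbr2 probe at -0.0421 (median -0.0119). Scgb1c1, a nasal secretoglobin, stood at 1.84 in animal 26 (median -0.144), Bpifb3 at 1.76 (median -0.0266) and the mucin Muc5b at 0.491 (median -0.0246). Animals 1 and 24 followed for Scgb1c1, at 1.05 and 0.763, and had Cyp2g1 at 0.286 and 0.299. The next highest Cyp2g1, 0.339, was in animal 28, where Scgb1c1 stood at 0.156 and Bpifb3 at 0.0643. Over 247 animals without animal 26, Cyp2g1 was still most like Scgb1c1 (r = 0.65) and Bpifb3 (0.57). Without animals 1, 24, 26 and 28, it was most like Aox4 (0.56) and neither of these ranked among its first 5. The olfactory bulb marker list stood at 0.351 in animal 26, above a median of -0.111 and near the top of the range of -0.303 to 0.389, whose highest was animal 28. The part of nasal tissue in these values was not tested.

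**Figure D4:**
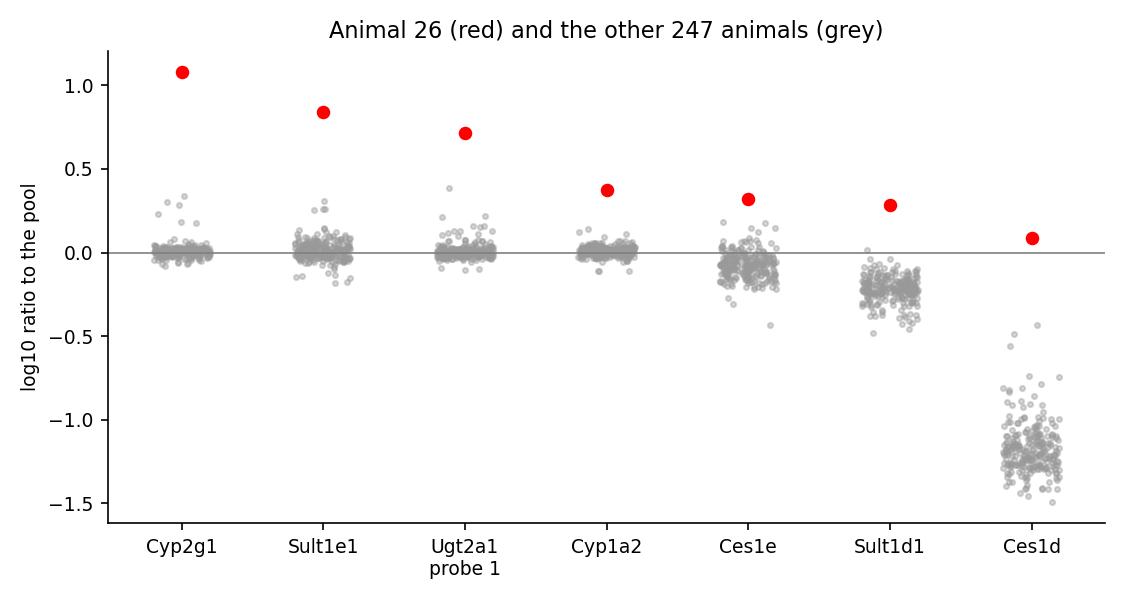
Log10 ratio to the pool (vertical axis) of 7 member probes in animal 26 (red) and in the other 247 animals (grey). Cyp2g1 in animal 26 stands at 1.08, more than any other animal.

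Close paralogs were taken as members that share a family prefix, such as Cyp, within 10 positions of each other among the measured genes. They gave 253 pairs of probes. Some pairs join different subfamilies, such as Cyp2b10 with Cyp2a5. Pearson r passed a permutation test (100000 permutations, Benjamini-Hochberg adjusted p under 0.05 over the 253) in 111 pairs, 72 positive and 39 negative, Spearman rho in 100, and both in 75. The 111 are 43.9% of the pairs, and the smallest absolute r among them was 0.149. An absolute r of that size was reached by 52.9% of 143254 pairs of any 2 genes within 10 positions and by 50.6% of all pairs of probes. Correlated pairs were thus no more frequent among close paralogs than among other genes. In 77 pairs, at least 1 probe formed 2 clusters with 6 or more animals each, so that a pooled r is hard to read. Of the remaining 176 pairs, 73 passed, 46 positive and 27 negative, with a median r of 0.0535 over the 176. Whether a probe also detects a near-identical paralog was not tested.

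The 2 leading pairs without clusters were Cyp4f15 with Cyp4f14 and Gstm2 with Gstm1. Cyp4f15 and Cyp4f14, whose promoters are printed above, lay 2 positions apart on chromosome 17 and correlated at r = 0.739 and rho = 0.746 (unadjusted permutation p = 1e-05 for each, the smallest that 100000 permutations can give). Without the 2 animals farthest from the Cyp4f15 median, r was 0.732. Since Cyp4f14 fell into 3 groups, r was also taken within them: 0.168 in the 64 low, 0.418 in the 136 middle and 0.377 in the 48 high animals. Gstm2 probe 1 and Gstm1 probe 1, mu-class transferases on chromosome 3, correlated at r = 0.646 and rho = 0.655 (unadjusted permutation p = 1e-05 for each), and at r = 0.658 and 0.627 in the 124 animals of lower and the 124 of higher number. Each was more like genes of other chromosomes, Gstm1 probe 1 like Yipf3 on chromosome 17 (r = 0.83) and Gstm2 probe 1 like Dlgap3 on chromosome 4 (r = 0.85).

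The other 3 of the leading 5 pairs contained a clustered probe and are given within the larger cluster. There r was 0.296 for Cyp2c54 with Cyp2c29 (229 animals), 0.270 for Cyp2b10 with Cyp2a5 (237 animals) and 0.497 for Cyp2b19 probe 2 with Cyp2b13 probe 2 (237 animals). Different probes for 1 gene did not always follow each other either. Of 28 such pairs, 21 passed the same test, 15 positive and 6 negative, with a median r of 0.166. Gstm1 probes 1 and 2 gave a rho of 0.565, whereas Cyp2b13 probes 1 and 2 gave a rho of -0.239.

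**Figure D5:**
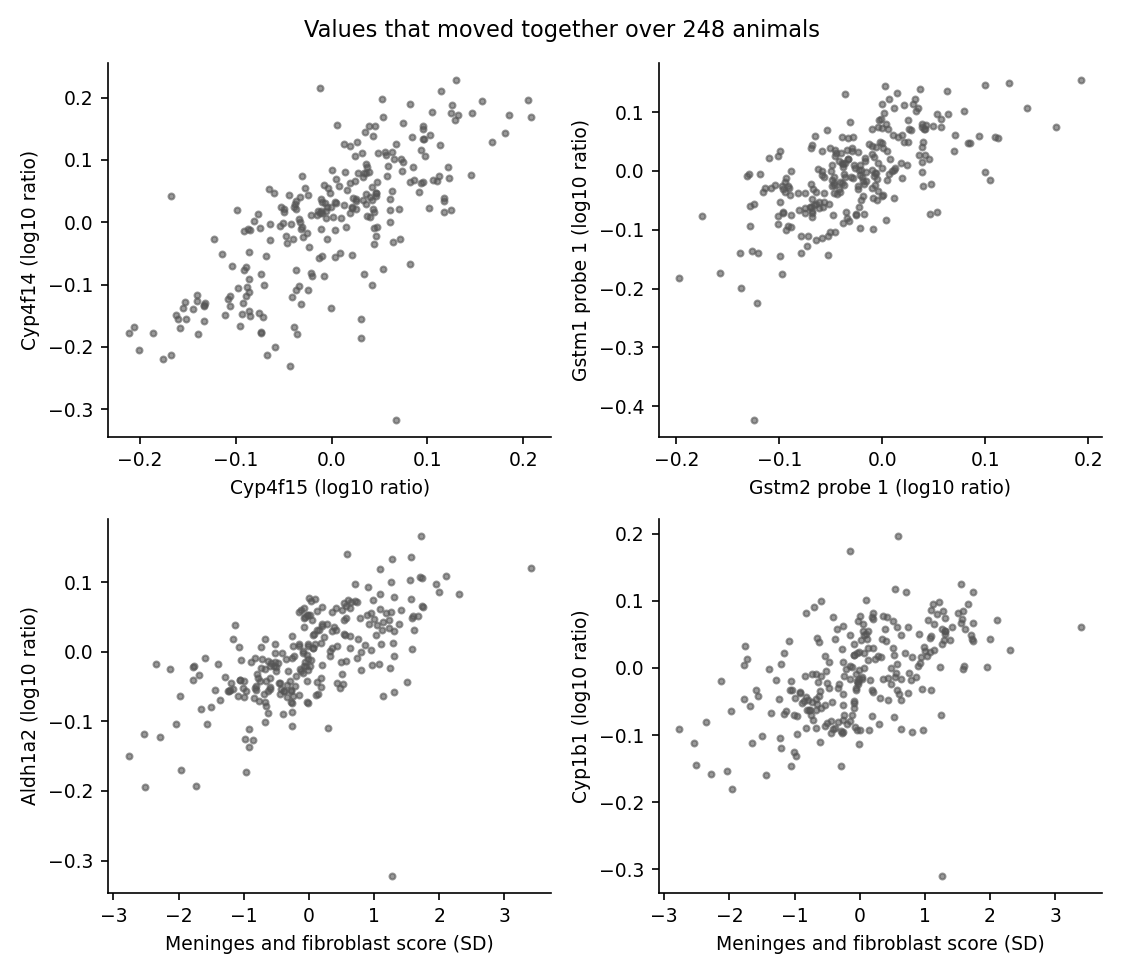
Values of 248 animals. The upper panels plot Cyp4f14 against Cyp4f15 and Gstm1 probe 1 against Gstm2 probe 1 (log10 ratios), and the lower panels plot Aldh1a2 and Cyp1b1 (log10 ratio) against the meninges and fibroblast score (SDs). All 4 relations rise, and animal 178 lies far below the rest in both lower panels.

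Cell type scores, the mean of standardised marker genes per animal, were set against every probe with limma. Slopes were called for a large share of all probes, and the members were called no more often. For oligodendrocytes 33 of 135 members (24.4%) were called, against 40.9% of all probes. For their precursors 47 were called (34.8%, against 45.5%), for microglia 44 (32.6%, against 47.2%), for endothelium and pericytes 49 (36.3%, against 44.5%), and for ependymal cilia 69 (51.1%, against 56.2%). For meninges and fibroblasts 29 were called (21.5%, against 26.9%), for choroid plexus 32 (23.7%, against 28%) and for lung 32 (23.7%, against 30.3%). The score of glucocorticoid-responsive genes gave 24 (17.8%, against 19.9%). For red cells no member was called by limma, against 0.23% of all probes, and 9 members had an unadjusted p under 0.05. Over these 10 scores, 128 of 135 members (94.8%) were called for at least 1, against 95.3% of all probes. Scores for neurons, astrocytes, liver, Nfe2l2 targets and olfactory bulb formed 2 clusters and were not fitted over all animals. The smaller cluster held 60 animals for the bulb, but only 1 for neurons, 2 for astrocytes, 2 for liver and 4 for Nfe2l2 targets. Without those few animals, an alternative chosen after seeing the data, 68 members (50.4%) were called for neurons, against 55.6% of all probes, and 51 (37.8%, against 48.4%) for astrocytes. For liver 41 were called (30.4%, against 44.4%) and for Nfe2l2 targets 59 (43.7%, against 53.7%). Between the markers of a score, mean r was 0.00791 for neurons, 0.0808 for astrocytes, -0.000136 for liver and 0.0266 for Nfe2l2 targets. These markers hardly moved together, so the scores may not follow a cell type or pathway. For the fitted scores mean r was 0.593 for red cells, and from 0.132 for endothelium and pericytes to 0.268 for microglia otherwise. For meninges and fibroblasts it was 0.168. Slopes on these scores are therefore loose measures of a cell type as well.

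Of the 59 named relations, picked as the largest slopes, those of 2 retinoid and steroid enzymes with the meninges had the largest r. Aldh1a2, the retinoic acid synthase of meninges, rose by 0.0420 ± 0.00318 (SE) per SD of the meninges and fibroblast score (limma adjusted p = 4.73e-27), with r = 0.644 and rho = 0.681. Cyp1b1, which oxidises steroids and retinoids in vessel and mesenchymal cells, rose by 0.0352 ± 0.00371 (limma adjusted p = 1.24e-15), with r = 0.517 and rho = 0.558. Without the 2 animals farthest in score, r was 0.628 for Aldh1a2 and 0.512 for Cyp1b1. In the 124 animals of lower number only 2 members kept a called slope on this score, against 1.33% of all probes, and these were Aldh1a2 (slope 0.0455) and Cyp1b1 (0.0321). In the 124 of higher number 27 were called, against 29.5% of all probes. Both genes are themselves known in meningeal cells, and neither was in the marker list. Cyp1b1 was more like Ehd4 (r = 0.736), Colec12 (0.702) and Atp1b2 (0.695) than like this score, and Aldh1a2 more like Thbd (0.700). Cyp1b1 also rose with the glucocorticoid score, by 0.0227 (r = 0.334). The cells that held these transcripts were not tested.

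The transferases Gstm1 and Gsta3 differed in sign. Gstm1 probe 1 rose with the microglia score by 0.0336 ± 0.00425 (r = 0.449) and Gstp1, the pi-class transferase, by 0.0260 ± 0.00351 (r = 0.445), whereas Gsta3, an alpha-class transferase, fell by 0.0243 (r = -0.326). With the endothelium and pericyte score, Gstm1 probe 1 rose by 0.0304 and probe 2 by 0.0347, and Gsta3 fell by 0.0251. With the choroid plexus score, Gstm1 probe 1 rose by 0.0289 and Gsta3 fell by 0.0158. Gsta3 also fell with the meninges and fibroblast score, by 0.0144, so these slopes were not particular to 1 cell type. Aldh2 rose with the ependymal score by 0.0463 ± 0.00579 (r = 0.453). Aldh9a1, which can oxidise an aldehyde to GABA, rose with the precursor score by 0.0283 (r = 0.379), and Aldh8a1, first described as a retinal dehydrogenase, fell by 0.0274 (r = -0.395). Cyp2b9 probe 1 and Cyp4b1-ps2 rose with the lung score by 0.0304 and 0.0212. Ces4a rose with the glucocorticoid score by 0.0323 and Cyp7b1, which hydroxylates oxysterols and neurosteroids, fell by 0.0170. Each of these slopes passed the limma test over all probes. When all scores were fitted together, 47 of the 54 named slopes on scores kept their direction and call.

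Along the animal numbers, 5 members changed, or 3.70%, against 13% of all probes. Per SD of animal number, Aldh1a1, a retinal dehydrogenase, rose by 0.0193 and Gstm5 by 0.00958, while Cyp4b1 probe 1 fell by 0.0186 and Gstm2 probe 1 fell by 0.0110. The probe annotated as Cyp11b1, the last enzyme of corticosterone synthesis, fell by 0.00999. Its gene record was not placed on a mouse chromosome, so what this probe detects is uncertain. In the 124 animals of lower number, r with animal number was 0.332 for Aldh1a1 and -0.165 for Gstm2 probe 1. In the 124 of higher number these turned sign, at -0.0898 and 0.130, while Gstm5, Cyp4b1 probe 1 and Cyp11b1 kept theirs. What the numbers stand for is not given in the labels.

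Other genes of drug metabolism, from a list of 65, were measured for 50 genes by 54 probes. Of these probes 9 had an SD of at least 0.1 (16.7%, against 9.26% of all probes), 1 had a mean below -0.3 (1.85%, against 0.295%) and 2 were called discrete (3.70%, against 1.27%). Pon1, paraoxonase 1, was the low one at -0.498. The discrete probes were of Xdh, xanthine dehydrogenase, on chromosome 17, with a 2.33-fold step, and of Cbr1, a carbonyl reductase, on chromosome 16. The Cbr1 probe had a 1.88-fold step in 245 animals. Another Cbr1 probe was not called and had an SD of 0.0167. The widest were Gsr, glutathione reductase, with an SD of 0.161, Xdh at 0.144 and a probe of Fmo5, a flavin monooxygenase, at 0.143. Another Fmo5 probe had an SD of 0.0368. Among 9 measured targets of Nfe2l2, the regulator that acts through the antioxidant element, the widest were Hmox1 at 0.222, Gsr and Gclm at 0.0824. Among 10 measured glucocorticoid-responsive genes they were Plin4 at 0.209, Sgk1 at 0.157 and Cdkn1a at 0.110.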

How the data were processed

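Per the labels, the deposited values compare each animal's RNA (Cy3) with the pool (Cy5); how the authors corrected and normalized them is not given in the sources used here. A log10 unit of the deposited table was read from the values: they stop at -2 and 2, and 2 Y-linked genes had upper clusters at 0.284 and 0.302, near the 0.301 that a factor of 2 gives, which also set the direction as animal over pool. One animal whose title and source name differ took the number of its source name. Gene names came from the platform annotation: 13645 probes had 1 symbol, 48 several and 9695 none. Chromosome and gene order came from RefSeq GRCm38.p6.

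Probes measured on at least 90% of 248 arrays were used (23053). Spread, mean and a 1:2:1 mixture were computed in Python 3.11.15, and slopes with limma 3.58.1 in R 4.3.3 over all probes, with Benjamini-Hochberg adjustment per score. Correlations used 100000 permutations. Both fits were tested on simulated data. The members and lists were chosen with earlier results of these data known. The rule for 2 clusters of at least 6 animals and the fit of the glucocorticoid list as a score were added after the values were seen. Named members are the 12 of largest SD, every discrete one with the 3 genes most like it, those with a mean beyond 0.3 of the pool, the extremes of SD per family, the 5 leading paralog pairs and the largest slopes, of which not all are printed; from each other list, the 3 of largest SD and the discrete genes. No protein sequence was used here.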

Additional observations from a re-analysis of the deposited data

How the results depend on the processing

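The count of members with an SD of at least 0.1 was 13, but 20 with animal 144 and 8 by the scaled median absolute deviation. Members with a mean below -0.3 numbered 3, and 6 lay below -0.2. The 3 discrete members became 7 with no kurtosis rule and 1 (Cyp11a1) at a BIC gain over 20; all 3 were kept without the 12 widest arrays, without animal 26 and as residuals from a spline of animal number. With animal 144, Cyp4f14 was lost. For these counts by SD, mean and shape, the shares of all probes under the alternatives were not counted. Counts of called slopes moved with the animals used, and the shares of all probes called, in brackets, moved as well. Counts in the 124 animals of lower number were 11 for oligodendrocytes (9.81%), 16 for their precursors (26.0%) and 27 for endothelium and pericytes (28.1%). There were also 2 for meninges and fibroblasts (1.33%), 7 for choroid plexus (4.65%), 18 for lung (15.8%) and 3 for glucocorticoid response (5.83%). Counts in the 124 of higher number were 16 for microglia (17.4%), 14 for lung (10.6%) and 13 for glucocorticoid response (8.77%). With animal 144 the counts were 52 for oligodendrocytes (52.0%), 54 for lung (51.1%), 23 for red cells (13.2%) and 39 for glucocorticoid response (25.8%). Without the 2 animals farthest in score, 20 were called for oligodendrocytes (31.1%) and 14 for glucocorticoid response (16.1%). The latter fell to 9 in the joint model (12.2%). Changes with animal number were 8 by a spline (11.8%) and 11 without the 12 widest arrays (17.0%). Paralog pairs numbered 73 of 176 without clustered probes. With animal 144, the slopes of Gsta3 on endothelium and pericytes (0.0335) and on meninges (0.00489), of Cyp2b13 probe 1 on ependymal cilia (0.0291) and of Gstm1 probe 2 on lung (0.000508) turned sign, as did Cyp2b13 probe 1 on oligodendrocyte precursors in the animals of lower number (0.00206). Of 59 named slopes, 26 kept their direction and call under all alternatives run. The causes were not tested. No paired analysis was possible because each animal has 1 array and there is 1 group. The lack of replicate arrays limits how small a difference between animals can be read.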

Other observations

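Gsta2, an alpha-class glutathione transferase, ran from -0.312 through -0.0648 to 0.316 (SD 0.114, n = 248). The genes most like it over all probes were the Y-linked Kdm5d and Eif2s3y. Over all animals r was -0.482 with Kdm5d and -0.475 with Eif2s3y. The values of both Y-linked genes formed 2 clusters, so these pooled r serve for ranking only. Within the clusters of Kdm5d, r with Gsta2 was -0.0960 (126 animals) and -0.116 (122 animals), and within those of Eif2s3y it was -0.0345 (127 animals) and -0.204 (121 animals). Aldh1a1 came next among the members, at r = -0.403 with Kdm5d as a measure for ranking only. Differences between the clusters were not tested, since such groups would be set by measured values and not by the labels.

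Array 144 lay above all other 248 animals for 35 of the 135 member probes and below all of them for 12, which is 34.8% outside their range, against 35.9% of all probes. The highest were Gsta3 at 1.43, Cyp4b1-ps2 at 1.39 and Sult1d1 at 1.34, and the lowest were Cyp4f14 at -1.33, Gstm5 at -0.997 and Sult4a1, a brain sulfotransferase, at -0.829. The ependymal cilia list stood at 0.570 and the red cell list at 0.467, both above the other animals.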
